A study of Homo sapiens with 2 samples.

Results

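The Ikaros family loci examined here are the genes IKZF3, IKZF1 and IKZF2 with 10 kb on each side, and their members are the PAX5 peaks whose summits lie in these windows. The windows were set by position on hg19 and not by any measured value. Earlier results of these data were known when the windows and the gene list were chosen. The windows held 8 of the 21361 peaks in the deposited table, 4 at IKZF3, 2 at IKZF1 and 2 at IKZF2. Binding was measured by chromatin immunoprecipitation and sequencing (ChIP-seq) with an Abcam antibody to PAX5 in the human cell line NALM6, which is derived from B-cell precursor leukaemia. The PAX5 ChIP group and the input control group, made without antibody, hold 1 sample each. Per the labels both are untreated NALM6 cells grown for 4 days in phenol red-free RPMI with serum and glutamine. The control is titled RXL, and the ChIP alignment is named with a time of 0 h and as a pool. Neither name is explained in the sources used here. The ChIP pool held 46190180 tags and the control 25416858. With 1 sample per group there is no replicate check, no p-value for a difference between samples is given, and the intervals below cover counting error only. Where intervals of separate sites overlap, this does not show that their values are equal, and differences between sites were not tested. The deposited table gives binding and no expression, so the identity of the cells could not be checked against marker genes.

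The Ikaros family proteins are zinc-finger transcription factors of blood cells. Fingers near the amino end bind DNA at sites with a GGGAA core, and a second set near the carboxy end joins members into dimers. IKZF1 encodes Ikaros, which is needed for lymphocyte development and is often deleted in B-cell precursor leukaemia. IKZF3 encodes Aiolos, which acts in later B-cell stages, and IKZF2 encodes Helios, best known from regulatory T-cells. PAX5, the paired-domain factor that commits cells to the B lineage, binds many genes of B-cell transcription factors. The question addressed here is where PAX5 enrichment over input was called at these 3 genes.

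PAX5 peaks lay at or just before the 5′ edge of IKZF1 and of IKZF2, and none lay there at IKZF3. The 250 bases before the outermost RefSeq start of IKZF1 and IKZF2 in the promoter table are shown, 5′ to 3′ on the gene's strand, from GRCh38.p14. No entry of the promoter table matched IKZF3, so no stretch is shown for it. Capitals mark matches to GGAA, the core bound by ETS factors, and to GGGAA, the Ikaros core, on either strand; every GGGAA holds a GGAA, so these matches overlap.
IKZF1, chr7:50304466-50304715, plus strand: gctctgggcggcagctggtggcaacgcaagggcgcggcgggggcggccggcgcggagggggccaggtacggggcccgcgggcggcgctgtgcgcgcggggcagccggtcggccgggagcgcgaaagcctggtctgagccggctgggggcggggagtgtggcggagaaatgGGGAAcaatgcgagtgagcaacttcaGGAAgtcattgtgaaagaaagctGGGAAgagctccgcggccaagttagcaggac
IKZF2, chr2:213152457-213152706, minus strand: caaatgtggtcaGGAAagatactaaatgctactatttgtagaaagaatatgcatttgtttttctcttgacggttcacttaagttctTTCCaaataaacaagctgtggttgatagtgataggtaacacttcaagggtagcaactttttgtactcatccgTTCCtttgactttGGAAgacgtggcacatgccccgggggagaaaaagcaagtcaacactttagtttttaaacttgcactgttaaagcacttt
The peaks are on hg19 and were not moved between builds, so it is not known which bases of these stretches the peaks cover, or which start they belong to. The table lists 3 starts for IKZF1 and 2 for IKZF2.

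The IKZF1 stretch is rich in G and C (71.2%) with 28 CpG dinucleotides, whereas the IKZF2 stretch holds 38% G and C and 4 CpG. The medians over all 35116 promoters of this length were 58% and 11. This contrast is between the outermost starts only. The other listed IKZF1 starts had 45.2% G and C with 3 CpG, and 32.8% with 0 CpG. The other IKZF2 start had 50% with 6 CpG. The IKZF1 stretch holds 2 matches to GGGAA and 3 to GGAA, the second count including those 2. The IKZF2 stretch holds no GGGAA and 4 matches to GGAA. Before the other IKZF1 starts there were 2 and 0 matches to GGGAA, and before the other IKZF2 start 0. Such matches are common, since 59.0% of all promoters hold GGGAA and 92.7% hold GGAA in these 250 bases. Neither stretch holds GCGTGAC, a core of PAX5 sites, or the E-box CAGGTG on either strand. Those letters are found in 2.20% and 17.5% of all promoters.

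IKZF3, the gene of Aiolos, carried 4 peaks, all in the 3′ part of its window. The peaks came as 2 pairs, 1 pair inside the gene and 1 just beyond its 3′ edge. The first pair of summits lay 63.0 and 69.2 kb downstream of the 5′ edge, at 59.5% and 65.3% of the gene's length, 6.1 kb apart. The second pair lay 1.6 and 3.2 kb beyond the 3′ edge, on the side of GRB7, the next protein-coding gene in the RefSeq order, and 1.6 kb apart. No summit was called within 63.0 kb downstream of the 5′ edge, and the nearest upstream of it was 117.2 kb away. The stretch without a summit that takes in the IKZF3 start was 180.2 kb long. No summit lay in the 10 kb margin on that side, towards ZPBP2, the next protein-coding gene in the RefSeq order.

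At the IKZF3 summit inside the gene nearer to the start, on chromosome 17 from 37956773 to 37957291, 142 ChIP reads were counted (exact Poisson 95% interval 120 to 167). After the caller's scaling to the depth of the control this is a pileup of 78.1, against a control background of 14 reads and a fold enrichment of 5.28 (4.45 to 6.21). Fold enrichment here is the authors' ratio of pileup to local control background, each with a pseudocount of 1, and its interval takes the background as fixed. The summit in the gene farther from the start, in the peak from 37950610 to 37951261, had 143 ChIP reads (121 to 168) against a background of 15 reads, a fold of 4.98 (4.21 to 5.86). These 2 intragenic sites did not differ beyond counting error in reads or in fold.

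Beyond the 3′ edge, the peak from 37909828 to 37911163 had the most reads of the 8, with 154 (131 to 180) over a background of 16 and a fold of 5.04 (4.29 to 5.90). It was also the widest, at 1336 bp, which ranks 195 of all 21361 peaks by width. Its summit lay 947 bp from one border and 388 bp from the other, so the enriched stretch reached farther away from IKZF3 than towards it. Its neighbour from 37911947 to 37912835, nearer to the 3′ edge, had 113 reads (93.1 to 136) and 16 background reads, giving a fold of 3.72 (3.07 to 4.46). That was the lowest fold of the 4, and its interval overlapped those of the other 3 sites.

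**Figure D1:**
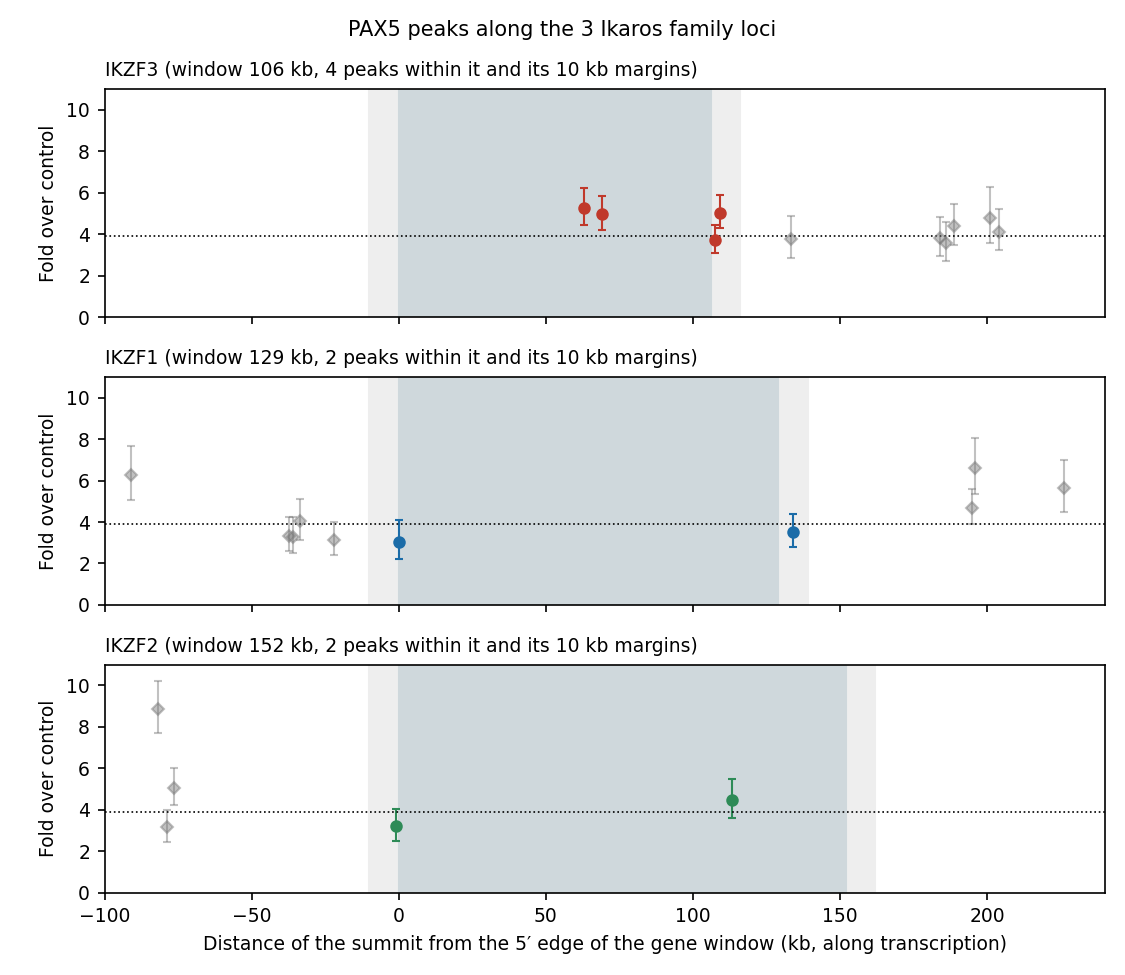
Fold enrichment over control (vertical axis) against the distance of each summit from the 5′ edge of the gene window in kb along transcription (horizontal axis), with a panel each for IKZF3, IKZF1 and IKZF2. Coloured points are the 8 peaks inside the windows, grey diamonds are other peaks within 100 kb of a window, bars are 95% Poisson intervals of the ChIP reads with the background fixed, dark shading is the gene, light shading the 10 kb margin, and the dotted line the median fold of all peaks (3.89). The IKZF3 peaks sit in the 3′ part, while IKZF1 has a peak at the 5′ edge and IKZF2 has one 0.8 kb before it.

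IKZF1, the gene of Ikaros, had 2 peaks, 1 at its 5′ edge and 1 beyond its 3′ edge. The first, on chromosome 7 from 50343971 to 50344374, spans the edge of the window, which the window's definition gives to the nearest 1 kb, and its summit lay 0.1 kb downstream of it. It had 40 ChIP reads (28.6 to 54.5), a pileup of 22.0 after scaling, against a control background of 6.52 reads, and a fold of 3.06 (2.22 to 4.12). This was the weakest of the 8 sites by reads and by fold. Its −log10 q was 3.63, and 12.8% of all peaks had a value as low or lower.

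The second IKZF1 peak, from 50477537 to 50478310, had its summit 5.0 kb beyond the 3′ edge, on the side of FIGNL1 in the RefSeq order. It had 75 reads (59.0 to 94.0) over a background of 11 and a fold of 3.52 (2.79 to 4.39), and was 774 bp wide. Its reads exceeded those at the 5′ edge with intervals that did not overlap, but its fold did not differ beyond counting error. Between the 2 summits lay 133.9 kb without a called peak, which takes in the rest of the gene.

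Part of that stretch may not be readable on hg19. RefSeq gives IKZF1 a length of 101.6 kb on GRCh38.p14, so that its hg19 window is 27.4 kb longer, whereas the windows of IKZF3 and IKZF2 were within 0.8 kb of their RefSeq lengths (106.6 and 152.8 kb). The hg19 assembly holds stretches of unknown bases, to which no read can map, and the hg19 sequence was not used here. How much of the IKZF1 body could hold a peak was therefore not measured.

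A cluster of peaks lay upstream of IKZF1, outside the 10 kb margin. The 4 summits were 22.2, 33.6, 36.0 and 37.4 kb before the 5′ edge. From near to far, they had 61, 65, 58 and 65 ChIP reads and folds of 3.14, 4.04, 3.29 and 3.34. Each had more reads than the 40 at the 5′ edge. All 4 intervals, with lower bounds of 44.0 to 50.2, overlapped that of the edge site (28.6 to 54.5). Overlap alone does not settle whether the reads differ beyond counting error, which was not tested. These upstream sites are not counted among the 8.

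IKZF2, the gene of Helios, had 2 peaks, 1 upstream of its 5′ edge and 1 inside the gene. The upstream peak, on chromosome 2 from 214016667 to 214016925, had its summit 836 bp before the edge of the window. Its borders lay 667 and 925 bp before that edge, which is rounded to within 500 bp. The RefSeq gene on GRCh38.p14 is 0.8 kb longer than the window. Whether the peak lies before the outermost start was therefore not settled. It had 67 ChIP reads (51.9 to 85.1) over a control background of 10.8 and a fold of 3.21 (2.51 to 4.05). It was the narrowest of the 8, at 259 bp.

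The intragenic IKZF2 peak, from 213902407 to 213902821, had its summit 113.4 kb downstream of the 5′ edge, at 74.6% of the gene's length. It had 85 reads (67.9 to 105) and 9.68 background reads, giving a fold of 4.48 (3.59 to 5.51). This was the highest fold outside IKZF3, and its interval overlapped that of the upstream site. Beyond it in the direction of transcription no summit was called for 2866.7 kb, from 213902558 down to 211035822. This stretch starts inside IKZF2, on the side of ERBB4, the next protein-coding gene there in the RefSeq order. Which genes it takes in was not examined, so it should not be read as ending before ERBB4.

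**Figure D2:**
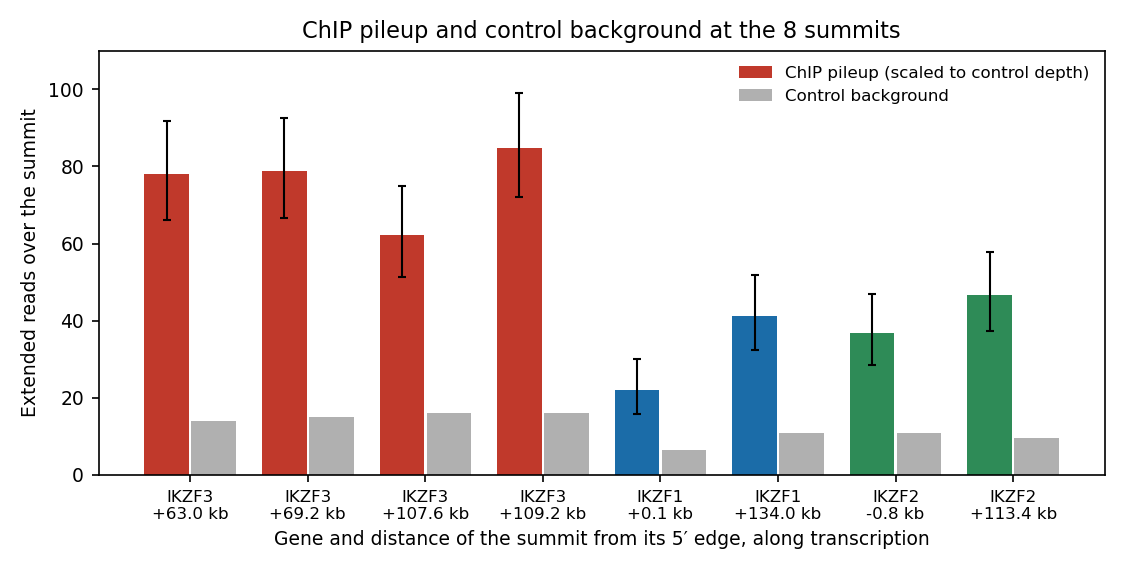
Values in reads at each of the 8 summits (vertical axis, linear from 0), by gene and distance from the 5′ edge (horizontal axis). Coloured bars are the ChIP pileup scaled to the control depth. Grey bars to their right are the caller's local control background. Bars of error are 95% Poisson intervals of the ChIP reads; the 4 IKZF3 pileups, 62.2 to 84.7, stand above the 22.0 to 46.8 of the other loci, and their control backgrounds of 14 to 16 also stand above 6.52 to 11.

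By reads, the 4 IKZF3 sites stood above the 4 sites at IKZF1 and IKZF2. The IKZF3 summits had 113 to 154 reads with a median of 142, and those of the other 2 genes 40 to 85 with a median of 71, so the sets did not overlap. The intervals of 3 IKZF3 summits lay wholly above those of all 4 others. The interval of the remaining one, 93.1 to 136, overlapped that of the intragenic IKZF2 site, 67.9 to 105, and barely that of the IKZF1 site beyond the 3′ edge, 59.0 to 94.0. The local control background moved the same way, with 14 to 16 reads at IKZF3 and 6.52 to 11 at the other genes. The part of the control in the difference in reads was not tested beyond the fold, which divides by it. By fold, the IKZF3 sites ranged from 3.72 to 5.28 and the others from 3.06 to 4.48, and these ranges overlapped.

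The control background at IKZF3 was high for its surroundings too. The 53 other peaks within 1000 kb of the IKZF3 window had a median background of 8.33 reads, and chromosome 17 as a whole a median of 8.1. Near IKZF1, 18 other peaks had a median of 8.21 reads, and near IKZF2, 5 had 10.8. The backgrounds of 14 to 16 at the 4 IKZF3 summits were above the median of their neighbours. Copy number was not examined.

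**Figure D3:**
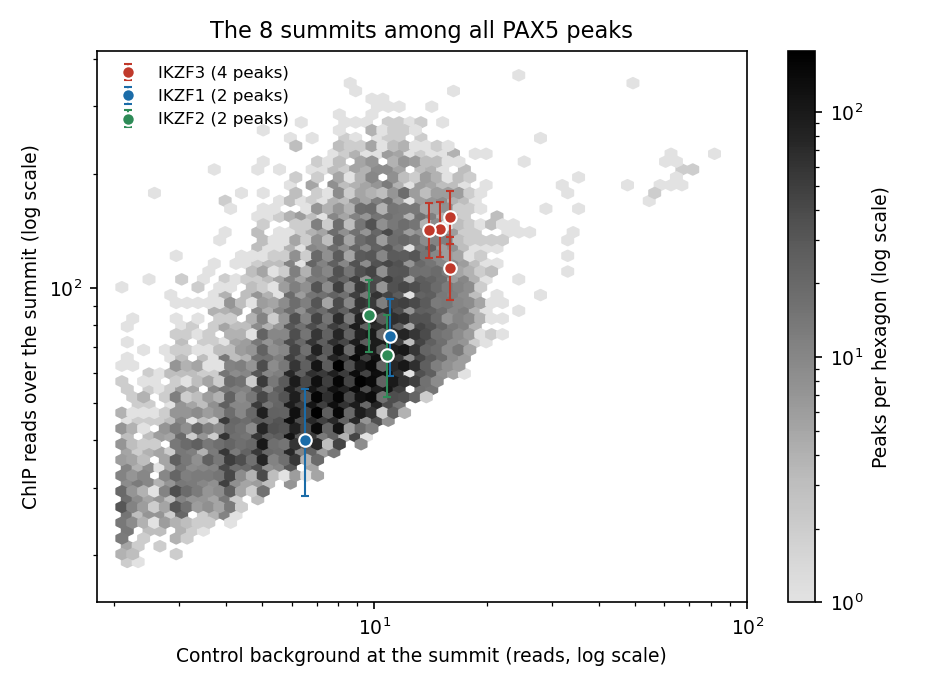
ChIP reads over the summit (vertical axis, log scale) against control background at the summit in reads (horizontal axis, log scale) for all 21361 peaks as grey hexagons and the 8 peaks at IKZF3, IKZF1 and IKZF2 as coloured points with 95% Poisson intervals. The IKZF3 points lie at high reads and high background. The IKZF1 5′ site, with 40 reads over 6.52, lies among the weaker peaks, and 12.8% of all peaks had a −log10 q as low or lower.

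Set against all peaks, the 8 sites were not among the strongly enriched ones by fold. Their median fold was 4.10, against 3.89 for all peaks, and 4 of the 8 were above that median. A fold of at least 5 was reached by 2 of the 8, both at IKZF3, and 25.0% of all peaks reached it. A fold of at least 10 was reached by none of the 8, and 1.72% of all peaks reached it. The highest fold of the 8, 5.28, ranked 4490 of 21361, and the lowest, 3.06, ranked 17012. By −log10 q the IKZF3 sites stood higher, at ranks 1723, 1795, 1993 and 4896. The sites at the other genes ranked 5392 to 18638. In reads, 7 of the 8 were above the median of all peaks of 61, and in control background 7 of the 8 were above the median of 8. Widths were 259 to 1336 bp with a median of 586, against a median of 383 for all peaks.

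Among the 1372 peaks of chromosome 17, the 4 IKZF3 sites ranked 39, 52, 56 and 125 by reads but 300, 316, 260 and 715 by fold, in the same order of sites. By control background they ranked 25, 49, 80 and 26. Among the 993 peaks of chromosome 7, the IKZF1 site at the 5′ edge ranked 873 by reads and 791 by fold, and the site beyond the 3′ edge ranked 282 and 606. Among the 1492 peaks of chromosome 2, the intragenic IKZF2 site ranked 339 by reads and 518 by fold, and the upstream site 645 and 1083. At each of the 4 IKZF3 sites, at most 9.33% of the chromosome's peaks had as many reads. At the other 4 sites this share was 23.4% to 89.2%.

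The number of peaks per length was highest at IKZF3 in these windows but was not resolved from the other genes, and with a margin of 50 kb it was 2.43 per 100 kb at IKZF3 against 2.62 at IKZF1. IKZF3 had 3.17 peaks per 100 kb (exact Poisson 95% interval 0.865 to 8.13), IKZF1 1.34 (0.163 to 4.85) and IKZF2 1.16 (0.141 to 4.20). The ratio of IKZF3 to IKZF1 was 2.37 (exact interval 0.339 to 26.1), that of IKZF3 to IKZF2 was 2.73 (0.391 to 30.2), and that of IKZF1 to IKZF2 was 1.15 (0.0837 to 15.9). All 3 intervals reach 1. Peaks covered 2.70% of the IKZF3 window with its margins, 0.791% of that of IKZF1 and 0.392% of that of IKZF2.

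Windows with as many peaks were not rare. Consecutive windows of the same length were laid along the autosomes, unsequenced stretches included. Of those of 126 kb, 8.08% held at least the 4 peaks of IKZF3, and on chromosome 17, where peaks are dense, 21.8% did. Of the windows of 149 kb, 23.6% held at least the 2 peaks of IKZF1, and 18.7% on chromosome 7. Of those of 172 kb, 26.2% held at least the 2 peaks of IKZF2, and 23.8% on chromosome 2. Windows of these lengths without any peak made up 63.6%, 60.2% and 57.4% of the autosomal ones, in the same order of genes.

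**Figure D4:**
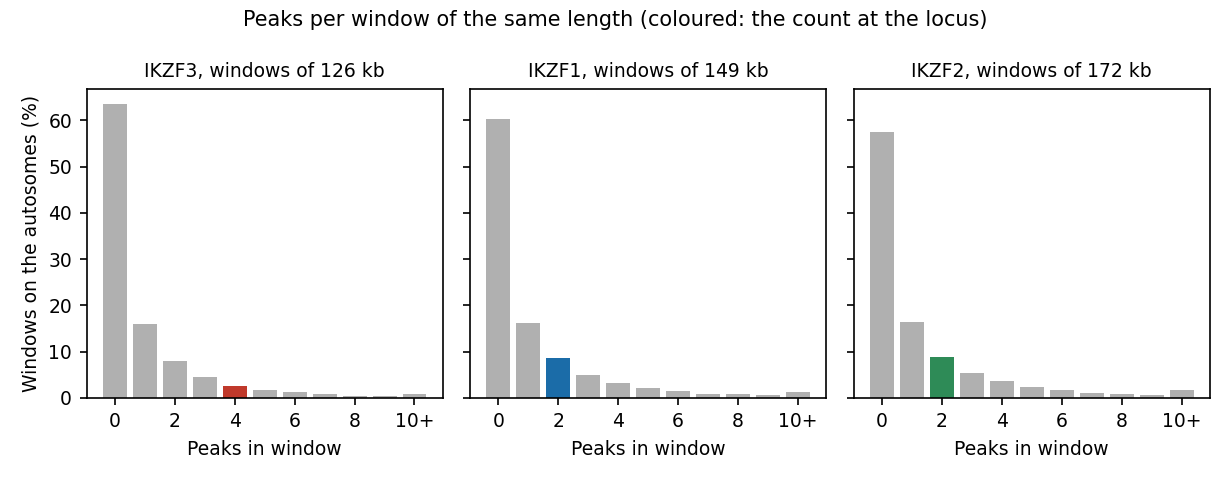
Share of consecutive autosomal windows in percent (vertical axis) by the number of peaks in the window (horizontal axis, the last bar 10 or more), for windows as long as the IKZF3, IKZF1 and IKZF2 windows with their margins. The coloured bar is the number found at the gene, 4, 2 and 2; 8.08%, 23.6% and 26.2% of the windows held at least that number.

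The absence of a peak has a limit set by depth. At the genome mean of the control, 2.12 reads, a summit needed at least 17 ChIP reads to reach the lowest −log10 p in the table, 3.74. At the median background of all peaks, 8 reads, it needed 37 reads, a fold of 2.37. At the median background of the called IKZF3 sites, 15.5 reads, it needed 57 reads, a fold of 1.96. At that of the called IKZF1 sites, 8.76 reads, it needed 39 reads, a fold of 2.30. The limit at the lower background of the IKZF1 5′ site, 6.52 reads, was not computed. That site had 40 reads and a −log10 p of 6.38. The background at the IKZF3 5′ edge and within IKZF1, where no peak was called, was not measured, so the limit that applies there is not known.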

How the data were processed

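PAX5 binding was measured in 1 pooled ChIP sample against 1 input control. The submitters' processing notes name BWA as aligner and hg19 as build. Per the file headers, the authors called peaks with MACS2 version 2.1.1.20160309 at a q-value threshold of 0.05 on extended reads, keeping 1 tag per position. The deposited pileup signal counts extended ChIP reads at a summit and was scaled by 0.550 to control depth. The authors' fold enrichment is the ratio of this signal to local control background, with a pseudocount of 1 on both. Their deposited −log10 p-value and q-value columns compare the same quantities under a Poisson law. A second deposited list gives positions after a cleaning step not given in the sources used here, and the summits of all 8 peaks lie in it.

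ChIP reads were computed as pileup over scale (100% of 21361 peaks whole within 0.005), and the background from pileup and fold. This background is the mean of the caller's Poisson law in units of reads. It need not be a count of control reads at the summit. Recomputed −log10 p values were within 0.05 of the deposited ones for 100% of peaks. On peaks simulated with the same formulas, 100% of 21361 had reads and background recovered. That checks the code and not the formulas. Intervals at 95% are exact Poisson for reads and numbers of peaks, exact binomial for ratios of densities and Wilson for shares, with no test, since no replicates exist. The peak windows, given to 1 kb, and the gene list were chosen with earlier results of these data known. Every peak in a window is described. No peak was assigned to a transcript, because the annotation at hand is on GRCh38.p14. Of the 3 genes, 2 matched the RefSeq promoter table of that build. Gene order was taken from RefSeq on that build, and IKZF4 and IKZF5 were not analysed here. Alternatives were the margin, the cleaned list, merging of near peaks, a stricter q and no pseudocount. Scripts ran in Python 3.11.15 with scipy 1.17.1, pandas 2.3.3, numpy 2.4.6 and matplotlib 3.10.9.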

Additional observations from a re-analysis of the deposited data

How the results depend on the processing

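Of 55 recomputed values of 12 results, 50 stayed close to the reported value, which meant within 1.5 times for a number of peaks and within the counting interval for a median fold, a density or a share. The other 5 were numbers of peaks that changed by more than 1.5 times, although each stayed within the Poisson interval of the reported number. Without the margin, IKZF3 had 2 peaks, IKZF1 had 1 and IKZF2 had 1, since the others lie outside the gene windows. With a margin of 50 kb, IKZF1 had 6 peaks, which adds the 4 upstream sites, and the order of densities turned, with 2.43 peaks per 100 kb at IKZF3, 2.62 at IKZF1 and 0.794 at IKZF2. At a −log10 q of at least 5, IKZF1 had 1 peak, the site beyond its 3′ edge, and the 5′ site did not pass. The cleaned list and merging of peaks within 500 bp gave 4, 2 and 2 peaks, as called. Median folds were 4.98 to 5.27 at IKZF3 (5.01 as reported), 3.06 to 3.56 at IKZF1 (3.29) and 3.84 to 4.48 at IKZF2 (3.84). The share of IKZF3 peaks at a fold of at least 5 was 50% (Wilson interval 15 to 85) and 40% with the wide margin. It was 0 at IKZF1 and IKZF2, where 2 peaks each allow a share of up to 65.8%. Over the RefSeq length of IKZF1 on GRCh38.p14, a setting chosen after seeing the data, its density was 1.64 peaks per 100 kb, against 1.34. No paired analysis was possible because the groups hold 1 sample each and the results come from no test. With 2 to 4 peaks per gene, the order of the 3 genes by peak density was not resolved.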

Other observations

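Farther from the genes, peaks within 100 kb of the windows were on one side of IKZF3 and of IKZF2. Upstream of IKZF3 no summit was called within 100 kb of the 5′ edge, and downstream of the 3′ edge 8 were, the 2 described above included. Downstream of IKZF2 none was called within 100 kb of the 3′ edge, and upstream 4 were, the site at 836 bp included, of which 3 lay 76.4, 78.8 and 82.0 kb before the 5′ edge. The farthest of these, on chromosome 2 from 214097596 to 214098249, had 208 ChIP reads (181 to 238 by counting error at 95%) with 12 background reads, a fold of 8.88 (7.73 to 10.2). It ranked 637 of all peaks by fold and 169 by reads, above every one of the 8 peaks at the 3 genes by both measures. Around IKZF1, 5 summits lay within 100 kb upstream and 4 within 100 kb downstream. The one 90.9 kb before the 5′ edge had 89 reads and a fold of 6.27, and those 195.8 and 226.3 kb downstream of the 5′ edge had folds of 6.59 and 5.63. These folds were above the 3.06 and 3.52 of the IKZF1 sites. Which gene these sites belong to was not examined.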
